A study of Mus musculus with 18 samples.

Results

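The collagens described here are 10 genes of the matrix of white fat: the fibrillar collagens Col1a1, Col1a2, Col3a1, Col5a1 and Col5a2, the type VI collagens Col6a1, Col6a2 and Col6a3, and the basement membrane collagens Col4a1 and Col4a2. They were chosen by name and not by their values, and were found by matching the Ensembl identifiers of the count table to GENCODE M21 symbols. All 10 were measured, among 16452 genes in the table. Type I chains (Col1a1, Col1a2), type III (Col3a1) and type V (Col5a1, Col5a2) assemble into the fibers of connective tissue. The 3 type VI chains form beaded filaments that link fibers to cell surfaces, and the 2 type IV chains form the sheet-like network of basement membranes.

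The RNA came from whole epididymal white adipose tissue, the visceral fat pad beside the epididymis, of wild-type male C57BL/6 mice of a generation the labels call Fm. The groups are named by what was microinjected into the zygotes that the labels give as their origin: a negative control, miR-let-7d or miR-let-7e. By the treatment labels all 3 groups, controls included, come from in vitro fertilization (IVF), and all received the diet labelled LFD, from week 6 to week 15 after a chow period; the age label reads 24 weeks, and the labels do not reconcile these ages. There were 17 libraries, 5 of controls (replicates 1, 2, 3, 4 and 6), 6 of let-7d and 6 of let-7e; control replicate 5 is not analysed here. No label says whether 2 libraries share an animal or a litter, so the p-values measure only the spread between these libraries.

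Fat cells in white adipose tissue are each wrapped in a basement membrane, and the fat cells, the stromal cells between them and the vessel walls all take part in making it. Fibrillar collagens are made mostly by stromal fibroblasts and progenitors as procollagens that must be hydroxylated, folded into a triple helix, secreted, trimmed and cross-linked. Type VI collagen is abundant in fat, where its loss in mice is known to let fat cells grow larger, and the matrix as a whole is remodelled whenever the fat pad expands.

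The sequences of the injected microRNAs are shown because both carry the same seed, the stretch at bases 2 to 8 by which a microRNA pairs with messenger RNA. The mature forms, from RefSeq on GRCm38.p6, lie at chr13:48536078-48536099 on the minus strand (let-7d) and chr17:17830366-17830387 on the plus strand (let-7e). Capitals mark the seed, and the 22-base strands differ at 3 positions outside it.
let-7d-5p: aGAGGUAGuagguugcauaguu
let-7e-5p: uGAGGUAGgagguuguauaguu
The labels place the injection in the zygote, and no measurement of let-7 itself in the adult fat was used here.

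The 7 bases that pair with this seed, CTACCTC, were searched on the sense strand of the annotated 3′ untranslated regions (UTRs) of GENCODE M21. They occurred once each in 4 of the 10 collagens, Col1a1, Col1a2, Col3a1 and Col5a2, and in none of the other 6. Of 14000 such UTRs of measured coding genes, 1278 (9.13%) held at least 1 match. The matches lie at chr11:94952391-94952413 (Col1a1, plus strand), chr6:4541063-4541085 (Col1a2, plus), chr1:45349136-45349158 (Col3a1, plus) and chr1:45375100-45375122 (Col5a2, minus). They are shown, with the match in capitals, so that the level of each gene can be read beside its site; in Col1a2, Col3a1 and Col5a2 the match is followed by an A, the form called an 8mer.
Col1a1 site: gtgttgctgaaagaCTACCTCgt
Col1a2 site: tccaaaggtttgaaCTACCTCaa
Col3a1 site: cctccctatgttaaCTACCTCaa
Col5a2 site: tttcttagcatgacCTACCTCat
The 4 genes with a match had log2 fold changes against control of 0.21 to 0.43 with let-7d and 0.26 to 0.61 with let-7e, and the 6 without one of 0.22 to 0.74 and 0.39 to 0.76. None of these values was negative, and the ranges overlap. A match is a string of letters and not a shown site of binding.

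Promoter sequences are shown for Col4a1 and Col4a2, whose levels moved together most closely after those of Col6a1 and Col6a2. Col6a1 and Col6a2 lie on the same strand of chromosome 10 with 85161 bases between them. Col4a1 and Col4a2 lie head to head on chromosome 8 on opposite strands, and in GENCODE M21 their annotated starts overlap by 22 bases. A part of this layout in their levels was not tested. The RefSeq promoter windows, 250 bases before to 50 after each start, are chr8:11312777-11313076 for Col4a1 (minus strand) and chr8:11312555-11312854 for Col4a2 (plus strand), and they share 78 bases. Capitals mark the letters CCAAT and GGGCGG (the GC box) on either strand.
Col4a1 promoter: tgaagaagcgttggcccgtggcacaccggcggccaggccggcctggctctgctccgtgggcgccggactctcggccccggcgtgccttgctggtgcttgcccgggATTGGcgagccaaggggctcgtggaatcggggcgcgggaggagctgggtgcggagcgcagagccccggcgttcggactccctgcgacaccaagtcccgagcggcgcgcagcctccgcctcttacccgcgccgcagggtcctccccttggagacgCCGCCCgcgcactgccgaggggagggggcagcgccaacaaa
Col4a2 promoter: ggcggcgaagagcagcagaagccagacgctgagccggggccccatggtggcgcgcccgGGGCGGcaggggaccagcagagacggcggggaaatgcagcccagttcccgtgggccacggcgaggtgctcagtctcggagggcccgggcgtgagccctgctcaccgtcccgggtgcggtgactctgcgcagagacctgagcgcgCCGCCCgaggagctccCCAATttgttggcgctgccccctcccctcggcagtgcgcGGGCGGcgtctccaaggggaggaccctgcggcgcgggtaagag
Col4a1 held 1 CCAAT and 1 GC box, and Col4a2 held 1 CCAAT and 3 GC boxes. The GC box of Col4a1 lies in the shared bases and is 1 of the 3 counted for Col4a2. CCAAT was present in 37.4% of 32851 promoter windows of the same length and the GC box in 35.7%. Guanine and cytosine made up 74.0% and 73.7% of the 2 windows, against a median of 52.7% over all windows.

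Per library the deposited counts summed to between 12717365 and 28972306, and the 10 collagens took from 0.507% of them (control 1) to 1.17% (let-7d 3). Levels are given in CPM, which divides each count by the library's total, scaled between libraries with the TMM method. By the identifiers in the labels, let-7d 1, let-7d 2, let-7e 1 and let-7e 2 form an early series, and all controls are among the 13 libraries of the late one. The fits carry a term for the series. With that term, values against control rest chiefly on the controls and the 4 late libraries of each injected group. Group means and counts of injected libraries above the control mean include the early ones. Markers of neighbouring tissue were high in 4 libraries. Summed vas deferens and epididymis markers stood at 17460 CPM in control 3, against at most 31.5 CPM in the injected groups, and summed spermatid markers at 1240.0 CPM in control 6. Summed epithelial markers reached 621.6 CPM in let-7d 1, 280.0 CPM in let-7d 5 and 289.8 CPM in control 3. Counts of the members called are also given without these 4 libraries. Fat cell markers were high throughout: the mean log2 CPM of 10 of them was 10.60 to 11.66 over the libraries, with Adipoq, which encodes adiponectin, at 3326 ± 787.3 CPM (SD, n = 5) in controls.

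Because longer transcripts give more reads, members were compared per length, as CPM per kilobase of the union of annotated exons. Col4a1 was the most abundant at 250.7 CPM per kilobase over the 17 libraries, followed by Col4a2 at 218.2, Col6a1 at 151.3 and Col3a1 at 129.4. Lower levels were found for Col6a2 (82.6), Col1a1 (61.1), Col1a2 (47.1), Col5a1 (38.3), Col5a2 (18.4) and Col6a3 (15.8 CPM per kilobase). Using the longest annotated transcript instead placed Col3a1 (228.3) above Col4a2 (224.0 CPM per kilobase), and reversed the order of the type I chains, with Col1a2 at 109.5 and Col1a1 at 67.6. Col1a1 and Col1a2 supply the unlike chains of the type I triple helix, and their ratio was 1.02 to 1.70 over libraries by the first length and 0.486 to 0.811 by the second. Col4a1 and Col4a2 supply the unlike chains of type IV, and had a ratio of 1.04 to 1.28 by exon union and 1.14 to 1.41 by longest transcript.

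The first question was whether collagen transcripts differed between let-7d and control fat. All 10 members had a positive log2 fold change, with a median of 0.41; over all genes the median was -0.04, and 42.5% of genes had a positive value. The median was 0.65 for the type VI chains, 0.40 for the fibrillar and 0.25 for the type IV chains. None passed an adjusted p of 0.05 in edgeR's quasi-likelihood test with Benjamini-Hochberg adjustment over 16452 genes, nor did any other gene (0% called); the members' adjusted p ran from 0.456 to 0.752. At an unadjusted p under 0.05, 5 members were higher (Col3a1, Col5a1, Col6a1, Col6a2 and Col6a3), against 3.11% of all genes higher and 7.08% lower; 1676 genes (10.2%) passed in either direction. DESeq2 called 10 genes (0.0632%) and limma-voom 0 (0%), none of them a member. No member's let-7d libraries lay wholly above the controls, as 0.176% of all genes did (0.517% lay apart in either direction). The members vary together from library to library, so these are not 10 independent observations. In whole tissue, a change in the number of cells of a type and a change in RNA per cell cannot be told apart.

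For let-7e against control all 10 members again had a positive log2 fold change, with a median of 0.58 against -0.04 over all genes, of which 41.9% were positive. Class medians were 0.64 for type VI, 0.59 for the fibrillar and 0.41 for type IV. Again none passed, nor did any gene of the table (0% called), and the members' adjusted p in edgeR's test ran from 0.356 to 0.672. Unadjusted p lay under 0.05 for 7 members, all but Col1a1, Col1a2 and Col6a1, against 2.52% of all genes higher and 7.99% lower; 1729 genes (10.5%) passed in either direction. DESeq2 called 15 genes (0.0987%) and limma-voom 0 (0%), again no member. No member's groups were apart, whereas 0.249% of all genes were apart upwards and 0.632% in either direction. The same 5 control libraries serve both comparisons, so the members' values in one do not stand as a repeat of those in the other.

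The number of members under an unadjusted p of 0.05 changed with most single libraries left out, from 0 to 7 for let-7d and from 3 to 8 for let-7e. The share of all genes higher at the same threshold moved too, and stands beside each count. For let-7d the count was 0 of 10 without let-7d 3, with a median log2 fold change of 0.24, against 1.92% of all genes. It was 1 of 10 without any one of controls 1, 3, 4 and 6, against 2.45%, 3.25%, 2.84% and 3.73% of all genes. It was 7 without control 2, with a median of 0.55, and 7 without let-7d 5, against 6.3% and 3.85% of all genes. For let-7e it was 3 without let-7e 6 (1.98% of all genes) and 8 without control 2 (5.72%). It was 5 without let-7e 5 (1.94%) or any one of controls 1 (1.84%), 4 (2.84%) and 6 (3.9%). With no series term it was 1 for let-7d and 3 for let-7e, against 4.61% and 2.94% of all genes. Without the 4 libraries with high markers of neighbouring tissue it was 1 of 10 for each of let-7d and let-7e. The shares of all genes were then 3.25% and 2.9%, and the members' medians 0.44 and 0.49. All 10 values stayed positive in each of these fits. With no series term, however, those of Col1a1, Col1a2, Col4a1 and Col4a2 with let-7d were barely positive.

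**Figure D1:**
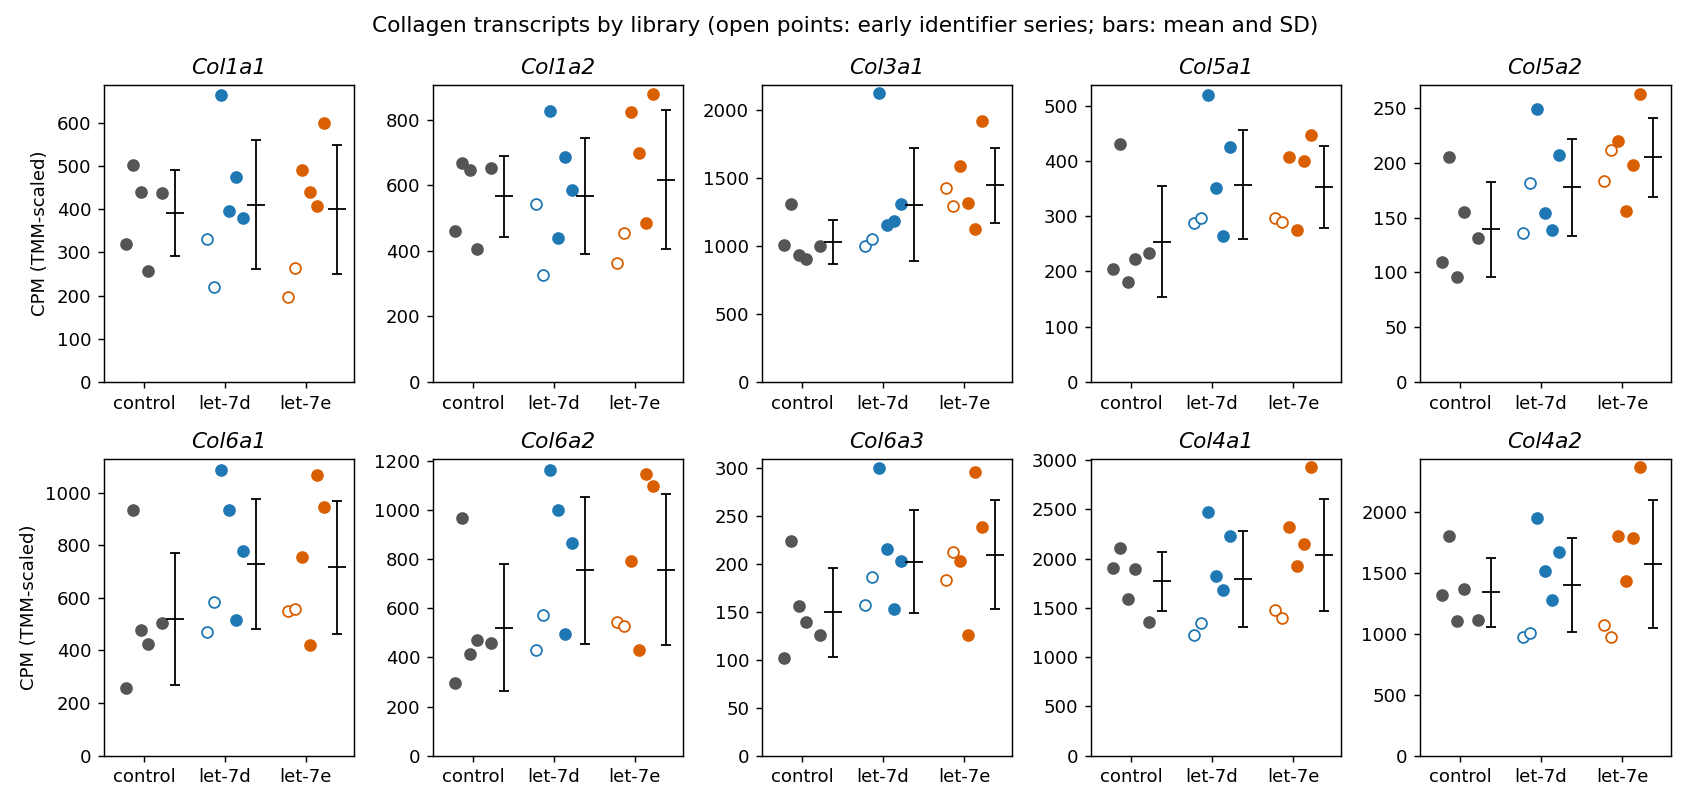
CPM of the 10 collagens in each of the 17 libraries, by group (gray control, blue let-7d, orange let-7e; open points are the early libraries let-7d 1 and 2 and let-7e 1 and 2), with the mean and SD of each group beside the points. Control 2 stands above the mean of the controls in all 10 panels, and let-7d 3 or let-7e 6 is the highest library in each.

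Among the fibrillar collagens, Col1a1, the major chain of type I, stood at 319, 501.5, 439.3, 257.6 and 437.7 CPM in controls 1, 2, 3, 4 and 6. Its lowest, median and highest values were 220.5, 387.7 and 664.1 CPM in let-7d and 196.1, 422.4 and 600.2 CPM in let-7e. The groups overlapped, and their means were 391 ± 99.6 (SD, n = 5), 410.7 ± 149.7 (n = 6) and 399.3 ± 148.5 CPM (n = 6). With the series term the log2 fold change was 0.34 ± 0.208 (SE) for let-7d and 0.26 ± 0.205 for let-7e (adjusted p = 0.58 and 0.672, edgeR); without it, 0.07 and 0.03.

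Col1a2, the other type I chain, stood at 460.8, 669.8, 647.2, 406.5 and 652.2 CPM in the controls. Let-7d ran from 325.0 over a median of 564.9 to 827.8 CPM, and let-7e from 364.3 over 591.1 to 879.3 CPM. The injected groups reached both lower and higher than the controls, and the controls' mean of 567.3 ± 123.8 CPM lay beside 568.5 ± 177.9 in let-7d. Log2 fold changes were 0.21 ± 0.217 and 0.30 ± 0.215 (adjusted p = 0.752 and 0.638, edgeR), and 0.00 and 0.12 without the series term. Without let-7d 3 the let-7d values of Col1a1 and Col1a2 were 0.19 and 0.10, and without control 4 Col1a2 had 0.13 with let-7d and Col1a1 0.16 with let-7e. Without let-7d 4 Col1a2 had 0.35 with let-7d, and without let-7e 6 Col1a1 had 0.16 with let-7e. In the late libraries alone Col1a1 had 0.29 with let-7d and 0.31 with let-7e, and Col1a2 0.16 and 0.35.

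Col3a1, the chain of type III, which accompanies type I in soft tissue, had the highest level of the fibrillar chains, also per kilobase. It stood at 1006, 1305, 932.7, 899.8 and 995.3 CPM in the controls, at 997.9 (lowest), 1165 (median) and 2118 CPM (highest) in the let-7d group, and at 1126, 1370.0 and 1919 CPM in let-7e. All 6 let-7e libraries and 5 of 6 let-7d libraries exceeded the control mean of 1028 ± 161.2 CPM, and only control 2 among the controls lay within the let-7e range. The log2 fold change was 0.43 ± 0.185 with let-7d (adjusted p = 0.473) and 0.59 ± 0.189 with let-7e (adjusted p = 0.356, edgeR), the smallest adjusted p of any member. Without let-7d 3 the let-7d value was 0.21.

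The type V chains enter the core of the fibers and help to set their width. Col5a1 stood at 203.8, 430.5, 179.9, 221.6 and 233.7 CPM in the controls, at 263.8, 323.7 and 519.1 CPM (lowest, median, highest) in the let-7d group, and at 275.7, 348.9 and 445.9 CPM in let-7e. Every injected library exceeded 4 of the 5 controls, and control 2 lay inside the injected range. Log2 fold changes were 0.61 ± 0.226 and 0.60 ± 0.226 (adjusted p = 0.456 and 0.394, edgeR), and without control 2 they were 0.89 and 0.87.

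Col5a2, its partner, was the lower of the pair, at 109.8, 205.4, 95.5, 155.4 and 131.4 CPM in the controls, 136.3, 168.1 and 249.3 CPM in let-7d and 156.3, 205.1 and 263 CPM in let-7e. All 6 let-7e and 4 of 6 let-7d libraries exceeded the control mean of 139.5 CPM, and control 2 lay within both injected groups, while control 4, at 155.4 CPM, lay within let-7d only. Its log2 fold change was 0.40 ± 0.212 with let-7d and 0.61 ± 0.213 with let-7e (adjusted p = 0.53 and 0.367, edgeR), and 0.26 with let-7d when let-7d 3 was left out.

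The type VI chains had the largest median log2 fold change, and Col6a1 and Col6a2 varied most between libraries. Col6a1 stood at 258.8, 933.2, 478.5, 424.5 and 503.5 CPM in the controls, at 470.4, 682.0 and 1088 CPM in the let-7d group, and at 421.3, 656.9 and 1066 CPM in let-7e. Control 1 was the lowest of all 17 libraries, control 2 lay far above the other controls, and 4 of 6 let-7d and 5 of 6 let-7e libraries exceeded the control mean of 519.7 CPM. Log2 fold changes were 0.65 ± 0.305 and 0.64 ± 0.307 (adjusted p = 0.486 and 0.491, edgeR).

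Col6a2 stood at 295.4, 966.6, 414.9, 470.4 and 457.8 CPM in the controls, at 430.2, 720.3 and 1165 CPM in the let-7d group, and at 431.1, 670.6 and 1149 CPM in let-7e. Control 2 again stood far above the other controls, and only controls 1 and 3 lay below all injected libraries. Its coefficient of variation over the 17 libraries, 42.8%, was the largest of the members, and that of Col4a1, 24.7%, the smallest. The log2 fold change was 0.74 ± 0.319 with let-7d (adjusted p = 0.473) and 0.76 ± 0.32 with let-7e (adjusted p = 0.434, edgeR). Leaving out 1 library moved it between 0.60 (without control 1) and 1.09 (without control 2) for let-7d, and between 0.62 and 1.11 for let-7e without the same libraries.

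Col6a3, the largest type VI chain, whose cleaved end is the peptide endotrophin, stood at 102.4, 224.2, 156, 139.2 and 126 CPM in the controls. It ran from 152.6 over 194.5 to 300.1 CPM in let-7d and from 125.6 over 207.8 to 296.1 CPM in let-7e. Every let-7d library exceeded the control mean of 149.6 ± 46.1 CPM, as did 5 of 6 let-7e libraries, while control 2 lay above most of them. Log2 fold changes were 0.51 ± 0.237 and 0.57 ± 0.239 (adjusted p = 0.486 and 0.437, edgeR).

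The type IV chains of the basement membrane were the most abundant members. Col4a1 stood at 1904, 2106, 1588, 1889 and 1354 CPM in the controls, at 1226, 1749 and 2471 CPM (lowest, median, highest) in the let-7d group, and at 1400.0, 2038 and 2928 CPM in let-7e. Let-7d covered the whole control range on both sides, and 4 of 6 let-7e libraries exceeded the control mean of 1768 ± 296.1 CPM. Log2 fold changes were 0.22 ± 0.149 and 0.39 ± 0.149 (adjusted p = 0.616 and 0.389, edgeR), and 0.02 and 0.20 without the series term. Without let-7d 3 the let-7d value was 0.14.

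Col4a2 stood at 1321, 1801, 1104, 1371 and 1115 CPM in the controls, at 977.8, 1398 and 1950.0 CPM in the let-7d group, and at 971.3, 1611 and 2369 CPM in let-7e. The 4 early libraries lay below every control for Col4a2, and for Col4a1 the early libraries let-7d 1 and 2 did. Log2 fold changes were 0.29 ± 0.162 and 0.43 ± 0.161 (adjusted p = 0.554 and 0.387, edgeR), and 0.06 and 0.23 without the series term.

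**Figure D2:**
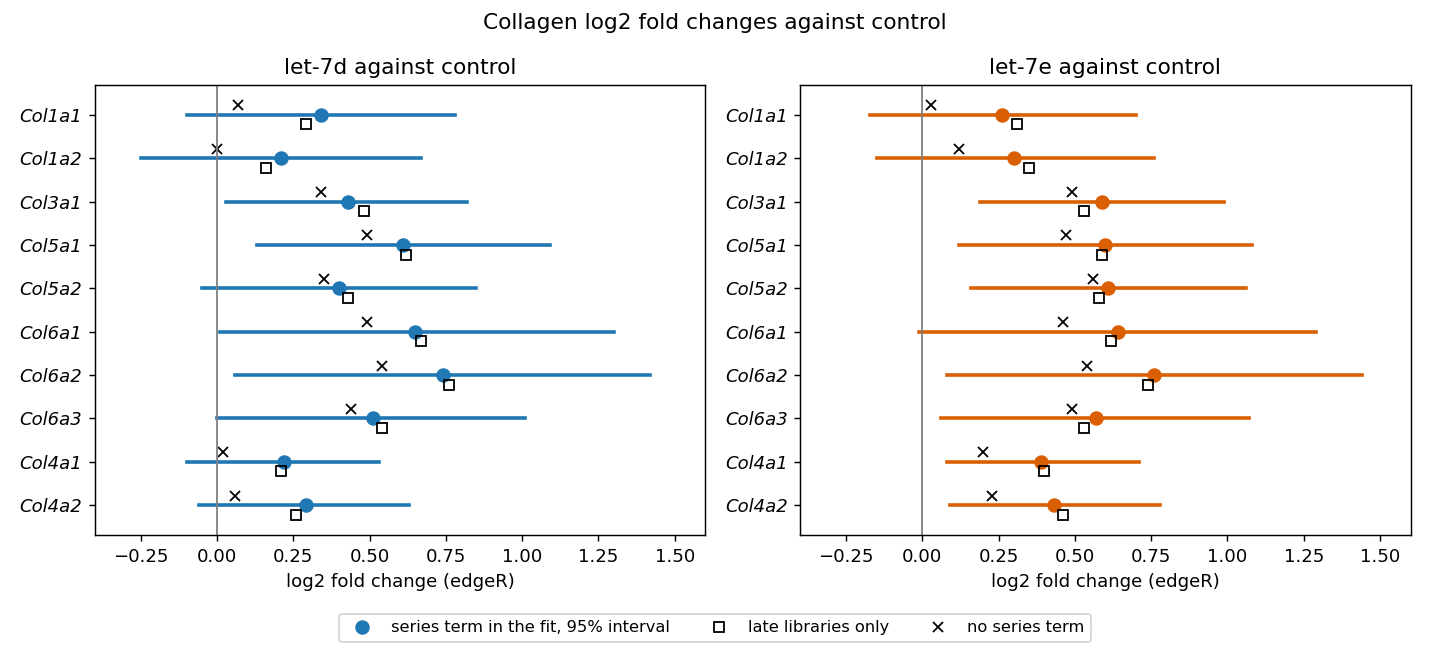
Log2 fold change of each collagen against control for let-7d (left) and let-7e (right), with the 95% interval of the edgeR fit that holds a series term; squares are fits to the late libraries only and crosses fits with no series term. Values with the series term lie between 0.21 and 0.76, and for Col1a1, Col1a2, Col4a1 and Col4a2 with let-7d the crosses lie between 0.00 and 0.07.

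Let-7e and let-7d fat, each with 2 early and 4 late libraries, were compared directly. Of the 10 members 7 had a positive log2 fold change, against 46.9% of all genes, and the median was 0.08. No member had an unadjusted p under 0.05, against 3.35% of all genes higher and 3.32% lower, or 1097 genes (6.67%) in all. No gene passed the adjusted threshold in edgeR (0% called) or limma-voom, and DESeq2 called 14 (0.115%), none of them a member. No member's groups lay apart, as 0.134% of all genes did upwards and 0.237% in either direction. The smallest adjusted p of a member was 0.869, for Col4a1, at a log2 fold change of 0.18 with a 95% interval of -0.11 to 0.46. For Col6a2 the value was 0.02 with an interval of -0.59 to 0.63, and for Col1a1 -0.08 with an interval of -0.47 to 0.32. The intervals of all 10 members include 0, and this does not show that the groups are alike.

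The early libraries stood apart for part of the collagens. In the coefficient of the series term, estimated from 4 early and 8 late libraries of the injected groups, 4 of 10 members were lower in the early libraries at an adjusted p under 0.05, against 6.72% of all genes (12.2% passed in either direction). All 10 members had negative values, against 49.5% of all genes, and 5 had an unadjusted p under 0.05, against 12.7%. Col4a2 fell by 0.77 on the log2 scale (SE 0.16, adjusted p = 0.00441), Col4a1 by 0.69 (SE 0.147, adjusted p = 0.00546), Col1a1 by 0.93 (SE 0.206, adjusted p = 0.00668) and Col1a2 by 0.68 (SE 0.213, adjusted p = 0.0483, edgeR). This comparison was chosen after its values were seen. What else differs between the identifier series is not given in the sources used here, and cannot be told apart from it.

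Col1a1 stood at 196.1 to 330.4 CPM in the 4 early libraries and at 379.3 to 664.1 CPM in the 8 late injected ones. Col4a1 ran from 1226 to 1476 CPM against 1678 to 2928 CPM, and Col4a2 from 971.3 to 1069 CPM against 1278 to 2369 CPM. For these 3 genes every early library lay below every late injected one. Col1a2 overlapped, at 325.0 to 542.6 against 440.5 to 879.3 CPM, and its call was lost in 17 of 22 alternative fits, among them the one with DESeq2 size factors (adjusted p = 0.0515). The calls of Col1a1, Col4a1 and Col4a2 were each lost in 1 of 22, the fit with a term for the replicate number. In that fit Col1a2 did not pass either, and the differences of all of these genes were larger in size. The early libraries all carry number 1 or 2, which only controls 1 and 2 share among the late libraries. That fit therefore separates series from number poorly and cannot decide whether the calls hold.

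The other 6 collagens did not pass this test. Col6a2 had a log2 difference of -0.75 ± 0.314 (adjusted p = 0.145, edgeR) and Col6a1 of -0.59 ± 0.299 (0.244), whereas Col5a1 (-0.40), Col3a1 (-0.31), Col6a3 (-0.23) and Col5a2 (-0.16) had smaller values. Whether the effect differs between the members that passed and those that did not was not tested. The ratio of Col3a1 to Col1a2 CPM was highest at 3.91 in let-7e 1, 3.23 in let-7d 2 and 2.82 in let-7e 2, but the fourth early library, let-7d 1, had 1.84, below late let-7d 3, 4 and 6 (2.56, 2.61 and 2.22). It was lowest in control 3, at 1.44.

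**Figure D3:**
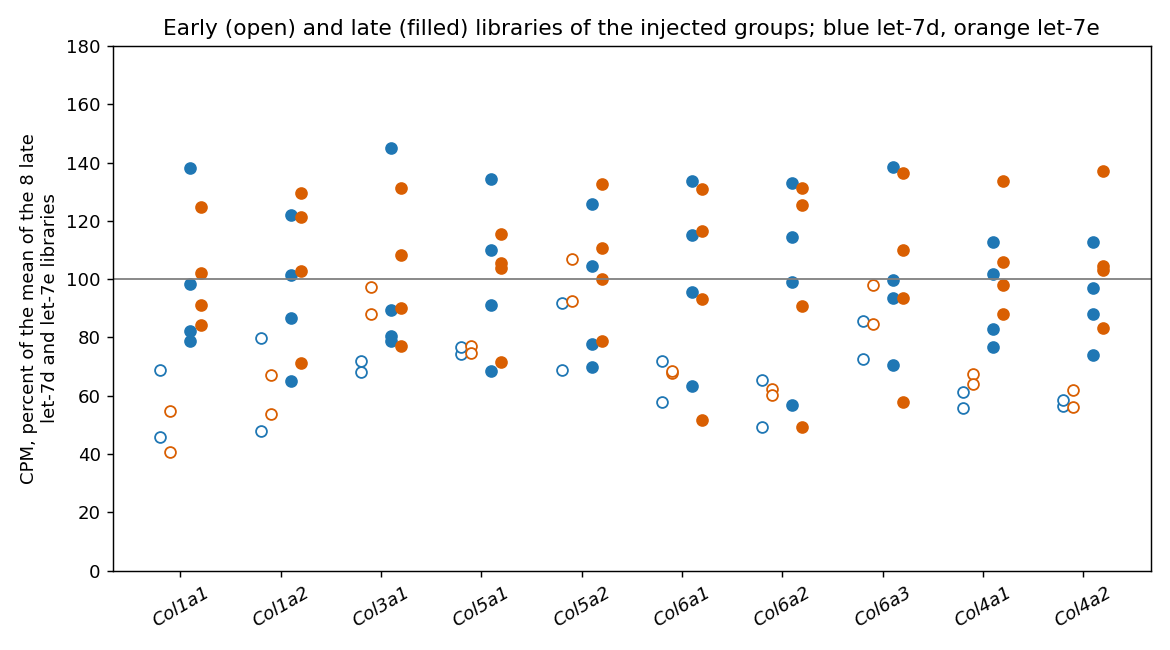
CPM of each collagen in the 12 injected libraries, as a percent of the mean of the 8 late ones (line at 100); open points are the 4 early libraries, blue let-7d and orange let-7e. The open points lie below all filled points for Col1a1, Col4a1 and Col4a2 and among them for Col5a2 and Col6a3.

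The lists of genes around these collagens were read from the same fit. All counts here stand against the 6.72% of all genes that were lower. Among basement membrane partners 3 of 22 fell: Hspg2, which encodes perlecan, by 0.93 on the log2 scale (adjusted p = 0.00673), Col18a1 by 0.83 (adjusted p = 0.0168, edgeR) and the laminin chain Lamb2. Nid1, which encodes the linker nidogen, had a value of 0.14 (adjusted p = 0.724). Of 22 genes of folding and modification 5 fell (Crtap, Fkbp10, P3h3, Plod1 and Plod3), and of 19 inducers 5 fell (Ltbp3, Ltbp4, Pdgfb, Pdgfrb and Tgfb1) and Tgfbr1 rose. Ltbp4, a binding protein of latent TGF-beta, fell by 1.42 (adjusted p = 2.76e-05, edgeR). In the remaining lists 1 of 14 genes of propeptide removal and cross-linking fell (Tgm2), 1 of 20 of breakdown and uptake (Mmp15), 1 of 22 fibril partners (Tnxb, while Ogn rose) and 0 of 14 receptors. Of 25 other collagens Col18a1 alone fell.

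Cell type markers were read from the same fit, in which 6.72% of all genes fell and 49.5% had negative values. Of 10 endothelial markers 4 fell (Cdh5, Cldn5, Tie1 and Vwf), and all 10 had negative values, with a median of -0.28. Of 5 red cell markers 2 fell (Alas2 and Hba-a1), and all 5 had negative values, with a median of -1.06. Of 10 pericyte and smooth muscle markers 1 fell (Notch3) and 8 had negative values. Of 12 stromal markers 1 fell (Pdgfrb, counted above among the inducers too), and of 10 fat cell markers 1 (Lipe). No macrophage or mesothelial marker passed. The part of these cell types in the lower type I and type IV values was not tested.

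Over the 17 libraries the 5 most closely correlated pairs were chains of the same type. All 45 pairs were correlated on log2 CPM, and 34 passed a permutation test of Pearson's r after Benjamini-Hochberg adjustment (33 for Spearman's rho), each with 100000 permutations. The permutations shuffled all 17 libraries freely, so shifts between groups and series enter these p-values. The share of pairs among all genes that would pass was not computed. Col6a1 and Col6a2 had r = 0.982 and rho = 0.968, and Col4a1 and Col4a2 r = 0.971 and rho = 0.946 (permutation p = 1e-05 for each, the smallest these permutations can give; adjusted p = 5e-05 for r). Col1a1 with Col1a2 had r = 0.921 and rho = 0.929, and Col5a1 with Col5a2 r = 0.888 and rho = 0.868, at the same permutation p. Leaving out the 2 libraries farthest from the median of the first gene gave r = 0.984, 0.959, 0.882 and 0.829 for these 4 pairs, and the 13 late libraries alone gave 0.984, 0.954, 0.883 and 0.943. Deviations from the group means gave r = 0.978, 0.971, 0.934 and 0.876.

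Chains of different types were tied less evenly. Col5a1 followed type VI closely, with r = 0.912 and rho = 0.907 against Col6a2 (permutation adjusted p = 5e-05), more closely than it followed type I, with r = 0.459 and rho = 0.424 against Col1a1 (permutation p = 0.0641, adjusted p = 0.0762). The weakest pair was Col1a2 and Col6a3, with r = 0.175 and rho = 0.186 (permutation p = 0.499). The difference between such correlations was not tested. Among the 10 fibrillar pairs the median r was 0.535 (0.218 to 0.921), among the 3 type VI pairs 0.936, and between fibrillar and type IV chains 0.645. Col3a1 and Col5a2, which are neighbours on chromosome 1 with 24614 bases between them, had r = 0.803 and rho = 0.814 (permutation adjusted p = 0.00045), and Col3a1 had nearly the same values with Col5a1, which is no neighbour (r = 0.792, rho = 0.784, permutation adjusted p = 0.00045). The libraries share depth scaling and the makeup of each fat pad, which enter every pair.

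**Figure D4:**
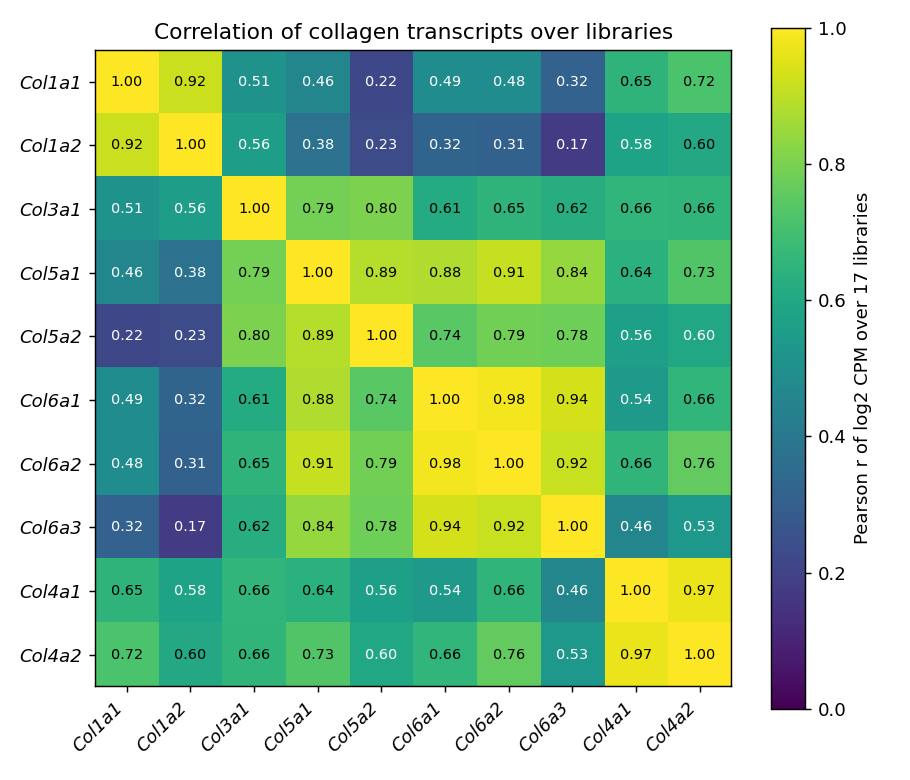
Pearson correlation of log2 CPM over the 17 libraries for each pair of collagens (color scale from 0 to 1, value in each square). The squares of Col6a1, Col6a2 and Col6a3 (0.916 to 0.982) and of Col4a1 with Col4a2 (0.971) stand out, and the lowest value, 0.175, is that of Col1a2 with Col6a3.

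Single libraries set the extremes of several members at once. Let-7d 3 was the highest of the 17 for 6 members and let-7e 6 for the other 4. Control 1 was the lowest for all 3 type VI chains, control 3 for both type V chains, and early libraries for Col1a1, Col1a2, Col4a1 and Col4a2. The balance of type VI over fibrillar chains, as the difference of their mean log2 CPM, ran from -0.68 in control 1 to 0.68 in let-7e 5. It averaged -0.206 ± 0.319 in the controls, 0.0683 ± 0.318 in let-7d and -0.0167 ± 0.432 in let-7e, so the groups overlapped.

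The genes with the most similar pattern outside all lists were ranked among 14308 genes that averaged 1 CPM or more, by Pearson's r of log2 CPM with each class mean over the 17 libraries, as a description. For the fibrillar chains they were Arsi (0.871), B3gnt9 (0.863), Slc27a3 (0.855), Chpf2 (0.846) and Mxra7 (0.845). For type VI they were Ndn, which encodes necdin (0.873), Mapre2 (0.873), Pea15a (0.872), Flot1, which encodes flotillin (0.866), and Ostf1 (0.865). For type IV they were Add1, which encodes an adducin of the membrane skeleton (0.927), the kinesin Kif1c (0.891), Sgsh (0.880), Mgat1 (0.876) and Necap2 (0.870).

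The machinery that builds collagen had mostly positive values with both microRNAs, and none of its genes passed the adjusted threshold. Of 22 measured genes of folding and modification 18 were higher with let-7d and 18 with let-7e, with median log2 fold changes of 0.15 and 0.14. Counts of higher genes in this list and in those that follow stand against 42.5% of all genes with let-7d and 41.9% with let-7e. Serpinh1, the collagen chaperone of the endoplasmic reticulum, averaged 547 ± 154.3 CPM in controls, 768.7 ± 252.2 in let-7d and 700.5 ± 134.1 in let-7e, with log2 fold changes of 0.55 and 0.42 (adjusted p = 0.48 and 0.557, edgeR). The largest value was that of Creb3l1, a transcription factor that induces collagen genes, at 0.69 and 0.53, and the smallest that of P3h4, a partner of lysyl hydroxylation, at -0.42 and -0.39. P4ha1, a subunit of prolyl hydroxylase, had 0.46 and 0.24.

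Of 14 genes of propeptide removal and cross-linking 11 were higher in each comparison, with medians of 0.31 and 0.29. Bmp1, the enzyme that trims the C-terminal propeptide, went from 78.1 ± 19.1 CPM in controls to 91.3 ± 10.7 in let-7d and 94.4 ± 13.1 in let-7e, with log2 fold changes of 0.32 and 0.36 (adjusted p = 0.473 and 0.384, edgeR). The cross-linking enzymes Loxl1 and Loxl2 had 0.31 and 0.32 with let-7d and 0.50 and 0.44 with let-7e. The largest values in this list belonged to Tll2, at 0.83 and 1.35, which was under 2 CPM on average in every group; the smallest were Adamts3 (-0.44, let-7d) and Adamts14 (-0.37, let-7e).

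Breakdown and uptake genes were higher in 14 of 20 with let-7d and 16 of 20 with let-7e, with medians of 0.13 and 0.09. The largest value was that of Timp1, an inhibitor of matrix metalloproteinases, at 0.91 and 0.50 from a control mean of 1.58 CPM, and the smallest were those of Mmp3 (-0.69, let-7d) and Mmp9 (-0.96, let-7e). Mmp2 and Mmp14, the chief gelatinase and its membrane-bound activator, had -0.03 and 0.01 with let-7d and 0.28 and -0.01 with let-7e. No gene of the list passed.

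Of 22 fibril partners 14 and 15 were higher (medians 0.17 and 0.22). Sparc, a collagen-binding protein abundant in fat, averaged 3904 ± 1067 CPM in controls, 4528 ± 495 in let-7d and 5391 ± 1288 in let-7e, with log2 fold changes of 0.23 and 0.48 (adjusted p = 0.699 and 0.423, edgeR). Ccn2 had the largest value with let-7d (0.67) and Fbn1, which encodes fibrillin, with let-7e (0.70). The smallest was Comp, at -1.88 and -2.12, whose controls held 31.7 CPM in control 6 and 0.533 to 2.6 CPM in the others.

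Of 22 basement membrane partners 15 and 13 were higher (medians 0.08 and 0.17). With let-7e 8 were higher and 1 lower at an unadjusted p under 0.05 in edgeR's test, against 2.52% and 7.99% of all genes. With let-7d 2 were higher and 0 lower, against 3.11% and 7.08%. Nid2, a nidogen, averaged 132.4 ± 38.2 CPM in controls, 202.1 ± 54.5 in let-7d and 194 ± 55.4 in let-7e, and all 6 libraries of each injected group exceeded the control mean; its log2 fold changes were 0.67 and 0.62 (adjusted p = 0.456 and 0.409, edgeR). The largest value with let-7d was Col4a4 at 0.93, which stood at 52.6 CPM in let-7d 1 and 19.6 in let-7d 5, libraries with epithelial markers, and at 4.98 to 7.12 CPM in the other 4. Control 3, which also held epithelial markers, had 8.77 CPM of Col4a4.

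Receptors of collagen were even, with 7 and 9 of 14 higher (medians -0.01 and 0.06). Itgb1, the shared beta chain of the collagen-binding integrins, had -0.03 and 0.07, and Ddr1, a receptor tyrosine kinase for collagen, 0.49 and -0.04. Cd93 had the largest value with let-7e (0.29), and Itga2 the smallest with both (-3.21 and -2.81), at 37.6 CPM in control 3 and 0.458 to 1.76 CPM in the other controls. Of 19 inducers 10 and 13 were higher (medians 0.01 and 0.17). Pdgfc, a growth factor for stromal cells, had 0.61 with let-7d, with let-7d libraries at 24.8 to 39.6 CPM above all controls at 16.8 to 23.6 CPM, and an adjusted p of 0.456 in edgeR's test; with let-7e it had 0.20. Ltbp4 had the largest value with let-7e (0.38) and Tgfb2 the smallest with both (-0.46 and -0.63).

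Collagens outside the 10 members did not share the pattern as a list. Of 25 other collagen genes 12 were higher with let-7d and 7 with let-7e, with medians of -0.03 and -0.30. These are 48.0% and 28.0%, against 42.5% and 41.9% of all genes. The abundant ones among them had positive values. Col5a3, the third type V chain, averaged 961.5 ± 337.1 CPM in controls, 1242 ± 334.7 in let-7d and 1222 ± 322.2 in let-7e, with log2 fold changes of 0.47 and 0.46; Col15a1, of the basement membrane zone, averaged 747.5 ± 255.5, 999.4 ± 324.3 and 980.1 ± 279.4 CPM, with 0.56 in each (adjusted p of 0.475 to 0.551, edgeR). These 2 were picked for their level after it was seen. The ends of the list were low: Col8a2 (1.20 with let-7d, at 18.4 and 15.3 CPM in let-7d 1 and 5), Col8a1 (0.60 with let-7e) and Col22a1 (-4.52 and -4.60), at 55.8 CPM in control 6 and 0.145 to 0.800 CPM in the other controls.

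**Figure D5:**
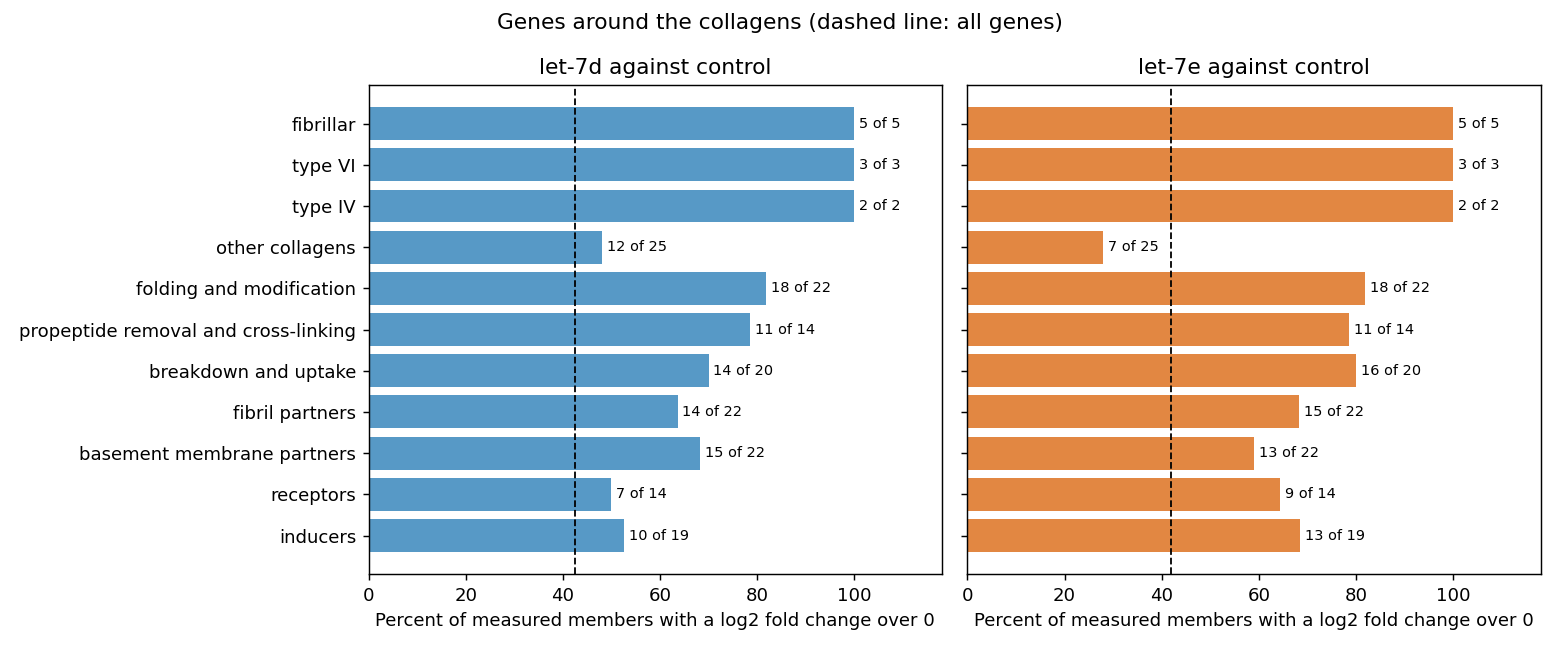
Percent of the measured genes of each list with a log2 fold change over 0 against control, for let-7d (left) and let-7e (right), with the numbers beside the bars; the dashed line is the percent over all 16452 genes (42.5% and 41.9%). The 3 classes of members stand at 100%, folding and modification at 81.8% in both, and the other collagens at 48.0% and 28.0%.

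Markers of the cell types that make the matrix were read beside the members. Of all genes 42.5% had a positive value with let-7d and 41.9% with let-7e. Of 12 stromal fibroblast and progenitor markers 9 were higher with let-7d and 8 with let-7e (medians 0.15 and 0.24), and their summed level overlapped between groups, at 1345 to 1972 CPM in controls, 1517 to 1914 in let-7d and 1419 to 2071 in let-7e. Pdgfra, which marks these cells, had log2 fold changes of -0.03 and -0.06. Of 10 endothelial markers 9 were higher with let-7d and 10 with let-7e (medians 0.13 and 0.34), with summed levels of 1088 to 1850.0, 1049 to 1809 and 1286 to 2000.0 CPM. At an unadjusted p under 0.05 in edgeR's test, 7 of them were higher with let-7e and 0 with let-7d, and none was lower. Of all genes 2.52% were higher at that threshold with let-7e and 3.11% with let-7d. Macrophage markers were higher in 10 of 10 and 7 of 10 (medians 0.27 and 0.15), with summed levels of 566 to 1277, 778.5 to 1572 and 708.9 to 1312 CPM, and fat cell markers in 3 and 7 of 10. Lep, which encodes leptin and is known to increase with fat cell size, stood at 248.3, 2080.0, 338.9, 640.0 and 801.7 CPM in the controls. Control 2, the highest in leptin, also had the highest collagen levels of the controls. Control 6, next in leptin, had summed collagens of 6007 CPM, beside 5981 in control 1 and 6037 in control 3, the lowest in leptin. Let-7d 1 had the highest leptin of all libraries, 2546 CPM, and the lowest summed collagens, 5556 CPM. It is an early library, and the early libraries were lower in type I and type IV chains. It also had the highest summed epithelial markers, 621.6 CPM, and the lowest summed fat cell markers, 23390 CPM. The relation of leptin to the collagens was not tested. Log2 fold changes of Lep were 1.10 with let-7d and 0.66 with let-7e (adjusted p = 0.484 and 0.664, edgeR). The part of these cell types in the collagen values was not tested.

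Pericyte and smooth muscle markers had a mean log2 CPM of 9.45 in control 3 and of 4.49 to 6.42 in all other libraries. Summed mesothelial markers ran from 133.2 to 233.7 CPM in controls, 57.9 to 317.6 in let-7d and 30.3 to 340.5 in let-7e, and red cell markers from 382.6 to 1442, 219.5 to 800.1 and 261.4 to 793.9 CPM. Control 3 was the lowest library for Col5a1 and Col5a2, at 179.9 and 95.5 CPM, but held 439.3 CPM of Col1a1, above the control mean. Without control 3 the log2 fold change of Col5a1 was 0.53 with let-7d and 0.51 with let-7e.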

How the data were processed

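RNA sequencing of whole epididymal fat was analysed in 17 libraries. The deposited values are raw counts per gene, whole numbers from the authors' table. Reads were aligned with STAR to GRCm38.p6, per the submitters' processing notes; the counting program and its use of strand are not given in the sources used here, so reads from a gene and an antisense partner cannot be told apart. The authors' RPKM table was not used, because the gene lengths it implies differ between libraries. Counts were fitted with edgeR 4.0.16 in R 4.3.3 (TMM scaling, quasi-likelihood test, terms for group and identifier series) over all 16452 genes, of which the filterByExpr function removed 0, with Benjamini-Hochberg adjustment. The script was tested on simulated counts. Log2 CPM uses a prior count of 2.

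The members, the lists and the alternatives were chosen with earlier results of these data known, and the comparison of early with late libraries was added after its values were seen. Alternatives were DESeq2 size factors, no filter or a mean of at least 5 CPM, DESeq2 1.42.0, limma-voom (limma 3.58.1) with sample quality weights, no series term, the late libraries alone, the compared groups alone, a replicate block, each library left out in turn, and the fit without 4 libraries with RNA of neighbouring tissue. Genes named with values are the members, the largest and smallest log2 fold change of each list in each comparison with controls, up to 8 further genes of the lists, the marker genes Lep, Adipoq and Pdgfra, genes of the lists that passed in the early libraries, and the 5 genes nearest to each class in pattern. One gene that this rule names is not reported here.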

Additional observations from a re-analysis of the deposited data

Results flagged for a closer look

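The highest and the lowest library of each member in each group, 30 sets in all, were compared with the rest by the gap to the nearest other library as a share of the group's range (Dixon's criterion), and 4 sets held a library that stood apart. Chance gives about 1 in 20 for independent sets. These sets share libraries and their members vary together, so 4 of 30 cannot be set against that share. Control 2 stood apart for Col3a1 at 1305 CPM, with a gap of 0.737 of the range of the controls. It also stood apart for Col5a1 at 430.5 CPM (0.785) and for Col6a2 at 966.6 CPM (0.739). Let-7d 3 stood apart for Col3a1 at 2118 CPM, with a gap of 0.725 of the let-7d range.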

How the results depend on the processing

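All 10 members had positive values in both comparisons with control under each of 28 settings. With no series term, the let-7d values of Col1a1, Col1a2, Col4a1 and Col4a2 were barely positive. No member passed an adjusted p of 0.05 in any setting, and the lowest was 0.0937 (edgeR), without control 2. DESeq2 called 10 genes for let-7d and 15 for let-7e against control, and 14 between the injected groups, where edgeR called 0. The cause was not tested. The members' median log2 fold change ran from 0.24 to 0.55 for let-7d and from 0.47 to 0.73 for let-7e when single libraries were left out.

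Signs were unstable for let-7e against let-7d. With the late libraries only, Col1a1 had 0.02, Col6a2 -0.02 and Col6a3 -0.02. Without the 4 libraries these values were 0.03, -0.18 and -0.08, and with limma-voom 0.03, -0.10 and -0.02. Leaving out single libraries moved Col1a1 between -0.17 and 0.04, Col1a2 between -0.01 and 0.22, Col5a1 between -0.11 and 0.09, Col6a1 between -0.12 and 0.12, Col6a2 between -0.10 and 0.16 and Col6a3 between -0.05 and 0.19. The cause was not tested.

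Replicate numbers are shared across groups, but not every same-numbered pair deviated together. Correlations of deviations ran from -0.376 to 0.228 for let-7d with control and from -0.131 to 0.146 for let-7e with control. For let-7e with let-7d 4 of 6 were positive (0.216 to 0.481, the highest being those of the early numbers 1 and 2) and those of numbers 4 and 5 were -0.239 and -0.236. The libraries were therefore taken to share only a number. With the replicate block the members' medians against control were 0.57 and 0.71. In the early libraries Col1a1, Col1a2, Col4a1 and Col4a2 then had log2 differences of -1.10, -0.74, -1.04 and -1.19, and none passed (adjusted p = 0.174, 0.342, 0.103 and 0.087, edgeR). With the block, only controls 1 and 2 separate the series from the replicate number, so this fit cannot decide whether those calls hold. Intervals and p-values cover the spread among 5 or 6 libraries a group, and with the series term those against control rest chiefly on the late libraries.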
